A study of Mus musculus with 240 samples.

Results

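The 42 genes described here act where DNA replication forks stall and where broken forks are repaired by copying an intact strand: the ATR checkpoint, the Fanconi anaemia pathway and homologous recombination. They were chosen by name, with earlier results of these data known, and all 42 were found among the 34623 genes of the deposited count table. The study followed oligodendrocyte precursor cells (OPCs), the dividing glial progenitors of the brain, in a mouse model of glioma. Cells were taken from brain sections by laser capture microdissection. The titles of the bulk libraries call the cells tdTpositive, that is, marked by a red fluorescent protein. The bulk captures came from 6 groups of animals. Wild-type mice (WT) were taken 12 days (5 animals), 90 days (5 animals) and 150 days (6 animals) after the start of tamoxifen treatment (dpi). Mice labelled Trp53-/- Nf1-/- (CKO in the titles), which lack a pair of tumour suppressor genes in the targeted cells, were taken at 12 dpi (7 animals) and 90 dpi (7 animals). The last group held brain tumour cells of 7 Trp53-/- Nf1-/- animals at 150 dpi. Time was counted from tamoxifen in both genotypes. The labels used here name neither the Cre driver nor the age of the animals. Small captures were made at 12 and 90 dpi from Trp53-/- Nf1-/- mice only, as 112 libraries of 10 cells each and 80 pool-and-split controls, which are aliquots of pooled cells. Both sexes were used.

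The kinase ATR is recruited with its partner ATRIP to single-stranded DNA coated by RPA. It is switched on by TOPBP1 or ETAA1 and signals through claspin to the kinase CHK1, which holds back the cell cycle. When a crosslink blocks the fork, the Fanconi core complex attaches ubiquitin to the FANCD2-FANCI pair, nucleases cut at the lesion, and BRCA1, PALB2 and BRCA2 guide repair in which the broken arm is copied from its sister. Many of these genes are transcribed as cells enter S phase, several of them under E2F factors, and their messages are scarce in resting brain.

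Promoter sequence was read for 36 of the 42 members, from RefSeq on GRCm38.p6, as 300 bases running from 250 before to 50 after the transcript start that the RefSeq table uses. That start lay within 50 bases of the gene's outer start in the annotation used for the counts for 24 members; it lay 407 bases from it in Chek1, 2092 in Slx4, 6001 in Timeless and 65533 in Fancc. Both strands were searched for the E2F-type letters TTTCCCGC, TTTGGCGC, TTTCGCGC and TTTGCCGC, because E2F factors are the textbook regulators of S-phase genes. At least 1 match was present in 6 of 36 members (16.7%) and in 704 of 27025 genes with a promoter of the same length (2.61%). The members with a match were Bard1, Brca2, Clspn, Fancg, Rad51c and Topbp1. The median GC content was 57.7% in the members and 52.8% in all genes. The 5 promoters below are shown on the strand of their gene, with the matched letters in capitals: the first 4 belong to members that were higher in tumours, and the last, that of Fancg, to a member that was not called there. They lie at chr4:126556730-126557029 (plus strand, Clspn), chr1:71102923-71103222 (minus strand, Bard1), chr9:103305077-103305376 (plus strand, Topbp1), chr5:150522371-150522670 (plus strand, Brca2) and chr4:43010252-43010551 (minus strand, Fancg).
Clspn: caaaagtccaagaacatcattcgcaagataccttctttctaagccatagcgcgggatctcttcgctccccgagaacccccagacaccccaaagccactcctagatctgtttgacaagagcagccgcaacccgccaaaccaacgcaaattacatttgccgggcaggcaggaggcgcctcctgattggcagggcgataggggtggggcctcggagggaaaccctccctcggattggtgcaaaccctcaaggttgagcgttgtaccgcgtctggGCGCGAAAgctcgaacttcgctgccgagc
Bard1: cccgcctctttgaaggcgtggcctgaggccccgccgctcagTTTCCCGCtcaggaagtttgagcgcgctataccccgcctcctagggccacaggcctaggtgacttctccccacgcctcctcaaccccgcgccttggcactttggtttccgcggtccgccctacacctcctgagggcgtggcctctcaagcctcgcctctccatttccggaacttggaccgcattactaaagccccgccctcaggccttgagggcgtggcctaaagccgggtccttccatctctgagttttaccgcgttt
Topbp1: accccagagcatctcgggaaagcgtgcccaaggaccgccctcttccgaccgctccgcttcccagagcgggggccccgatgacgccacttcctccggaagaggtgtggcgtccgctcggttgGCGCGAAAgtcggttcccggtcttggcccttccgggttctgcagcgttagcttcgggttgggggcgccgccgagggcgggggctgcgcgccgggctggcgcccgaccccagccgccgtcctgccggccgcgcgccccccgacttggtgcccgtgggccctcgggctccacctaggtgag
Brca2: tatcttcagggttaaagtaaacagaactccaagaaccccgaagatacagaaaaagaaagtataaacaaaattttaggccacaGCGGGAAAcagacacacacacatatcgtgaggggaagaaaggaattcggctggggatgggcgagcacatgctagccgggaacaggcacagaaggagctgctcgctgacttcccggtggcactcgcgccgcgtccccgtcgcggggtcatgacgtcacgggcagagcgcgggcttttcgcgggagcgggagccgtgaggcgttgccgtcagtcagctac
Fancg: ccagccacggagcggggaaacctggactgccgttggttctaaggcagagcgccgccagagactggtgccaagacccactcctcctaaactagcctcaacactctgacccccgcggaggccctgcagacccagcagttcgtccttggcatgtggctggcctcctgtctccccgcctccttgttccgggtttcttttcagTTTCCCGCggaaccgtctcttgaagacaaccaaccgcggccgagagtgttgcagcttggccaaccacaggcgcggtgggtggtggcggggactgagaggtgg
Relative to the RefSeq start, the match began 209 bases before it in Bard1, 168 in Brca2, 129 in Topbp1 and 52 in Fancg, while in Clspn it lay after it. The gene's outer start differed from the RefSeq start by 174 bases in Bard1, 112 in Topbp1, 205 in Fancg, 45 in Clspn and 9 in Brca2, so for Fancg the match lies inside the annotated gene. A match was present in 4 of 22 members called higher in tumours than in WT (18.2%), in 2 of 10 that were not called (20%) and in 0 of 4 called lower. The letters TTTGAA and TTCGAA, which are found in promoters of late cell-cycle genes, were in 6 of 36 members (16.7%) and in 21.7% of all genes. A match of letters describes the sequence and does not show that a factor binds there.

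In GRCm38 Clspn lies at chr4:126556935-126593903 on the plus strand, Bard1 at chr1:71027498-71103146 on the minus strand, Exo1 at chr1:175880581-175913489 on the plus strand and Chek1 at chr9:36708482-36727065 on the minus strand. Of the 42 members, 18 overlapped another annotated gene and 11 a protein-coding one. Atrip lay within Gm42641 on the same strand for 14374 bases, and Fanca, Fancc, Fanci, Rad54l, Fancl, Rad9a, Rad17, Fancd2, Eme1 and Fancf also overlapped a protein-coding gene. The overlaps with protein-coding genes ran from 73 bases (Rad17 with Ak6) to 50277 (Fanca with Gm20388). They were measured over whole genes, introns included, and shared exon bases were not counted. The strandedness of the counting was not given in the sources used here. Reads from bases that a member shares with a neighbour may therefore be assigned to either gene, and how many there were was not measured. Etaa1 and Topbp1 have near-identical stretches elsewhere, in Gm11284 (95.2% identity over 1888 bases) and Topbp1-ps2 (95.5% over 178 bases only). Their counts are uncertain for reads from those bases, and the share of such reads was not measured.

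The unit of replication in bulk was the animal: 48 libraries came from 37 animals, and the libraries of 1 animal were summed. Library totals, in units of 1000000 counts, were 0.0937 to 23.2 (median 10.0), and the shallowest was that of 1 WT animal at 90 dpi. At 150 dpi each tumour had 2 libraries and each WT animal 1. Summed per animal, totals in this unit were 4.91 to 31.3 in tumours and 2.32 to 14.8 in WT at 150 dpi. The part of depth in the tumour changes was not tested. Levels are given as counts per 1000000 after trimmed-mean scaling (CPM). They depend on transcript length, so they compare samples for a gene and not genes with each other. Nf1 was at 252 to 357 CPM in WT animals, against 176 to 216 in CKO animals at 12 dpi, 150 to 302 at 90 dpi and 149 to 273 in tumours. Trp53 overlapped between the genotypes at each time, and the labels do not say which part of either gene was removed. All 10 OPC markers were present in every group (Pdgfra, mean 274 to 453 CPM before tumours and 1213 in tumours), but so were neuronal ones: Snap25 averaged 3425 to 4543 CPM in the groups without tumours and 252 in tumours. None of the 60 marker genes checked was at 0 in any group. In bulk captures, fewer cells of a type and less RNA per cell cannot be told apart.

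Before tumours, none of the 42 genes was called between the genotypes at either time. At 12 dpi no member passed an adjusted p of 0.05 between CKO and WT (edgeR quasi-likelihood test, Benjamini-Hochberg adjustment over 16349 genes), where 0.0183% of all genes did. The 42 log2 changes ran from -1.19 to 2.22 with a median of 0.05, and 3 members had an unadjusted p under 0.05 (Clspn, Fancf and Fanci). DESeq2 also called 0 members in this comparison and in the 4 other comparisons that involve no tumour.

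Clspn encodes claspin, the adaptor that presents CHK1 to ATR. At 12 dpi its level was 0.195, 0.335, 0.351, 0.608 and 1.45 CPM in the 5 WT animals. In the 7 CKO animals it ran from 1.83 to 2.88 CPM, with a median of 2.51. The groups did not overlap, and Clspn was the only member of which this held at 12 dpi (1 of 42, against 1.33% of all genes). The WT libraries were shallower: the median library total at 12 dpi, in the unit given above, was 3.47 in WT and 13.7 in CKO. At this depth the WT levels of Clspn rest on few counts. The part of library depth in the separation of Clspn was not tested. The log2 change was 2.22 ± 0.54 (SE), with an adjusted p of 0.30, so the difference did not pass the test across all genes. Beside it, the 20 proliferation genes listed all had log2 changes above 0 at 12 dpi, with a median of 1.04 and 0 called, and their summed level was 114 to 217 CPM in CKO and 63.8 to 124 CPM in WT animals. The part of dividing cells in the Clspn difference was not tested.

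Fancf, a subunit of the Fanconi core complex, pointed the other way. It was at 5.22, 6.08, 7.36, 10.0 and 11.3 CPM in WT and at 0.902 to 6.17 CPM (median 3.34) in CKO animals, a log2 change of -1.19 ± 0.40 (adjusted p = 0.83), and the groups overlapped. Fanci, the partner of FANCD2, was at 1.22, 1.45, 1.64, 3.35 and 3.60 CPM in WT and 2.78 to 12.1 CPM (median 3.11) in CKO animals, also with overlap. Its log2 change was 1.06 ± 0.49, with an unadjusted p of 0.036.

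At 90 dpi no member was called between the genotypes, against 0.0489% of all genes. The log2 changes ran from -0.93 to 1.33. Hus1, a subunit of the ring-shaped checkpoint clamp, alone had an unadjusted p under 0.05: it was at 20.7, 22.2, 23.7, 33.2 and 37.9 CPM in WT and 26.3 to 93.1 CPM (median 32.0) in CKO animals, a log2 change of 0.65 ± 0.28 (adjusted p = 0.91). These ranges overlapped. The WT value of 37.9 came from animal WT_21167, whose library total was the lowest (0.0937 in the unit given above), so it rests on few counts. The value of 93.1 came from a single animal, CKO_20647. Its neuron (15608 CPM) and astrocyte (7449 CPM) marker sums were the highest of its group, and its OPC marker sum (2313 CPM) was the lowest.

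Between 12 and 90 dpi no member was called within CKO (log2 changes -1.05 to 0.96, 0.0% of all genes called) or within WT (-1.37 to 0.99, 0.00612% called). In CKO, Clspn had a log2 change of -1.05 ± 0.40, and Bard1, Blm and Fancf also had unadjusted p-values under 0.05. In WT no member did. Between 12 and 90 dpi the effect of genotype was called as changed for 0 members and 0.0% of all genes, with log2 changes of -1.82 to 1.37 and unadjusted p-values under 0.05 for Clspn and Fancf. Over all genes, 589 to 850 had an unadjusted p under 0.05 in these 5 comparisons by edgeR, and DESeq2 called 2 to 18.

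In tumours most of these genes were higher. Against WT at 150 dpi, 29 of 42 members were called, where 46.2% of all genes were. The called members were 25 higher and 4 lower, where 24.3% of all genes were called higher and 21.9% lower. The median log2 change was 0.95 over the members and 0.06 over all genes, and the members ran from -1.0 to 4.83. Against CKO at 90 dpi, which shares the 7 tumours with the first comparison, 30 members were called (49.1% of all genes), 27 higher (26.4%) and 3 lower (22.6%), with medians of 1.16 and 0.12. No CKO group without tumours was taken at 150 dpi, so tumour state and time cannot be told apart in that second comparison. The plot of tumour changes by role shows both comparisons side by side. In 10 members every tumour was above every WT animal at 150 dpi (Bard1, Blm, Brca1, Clspn, Exo1, Fanca, Fancd2, Fanci, Rad51ap1 and Rad54l), while 6.72% of all genes were separated in that direction and 15.7% in either. Between tumours and CKO at 90 dpi the groups were separated upward in 13 members, against 6.77% of all genes, and in 17.2% of all genes in either direction. No member was separated downward.

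**Figure D1:**
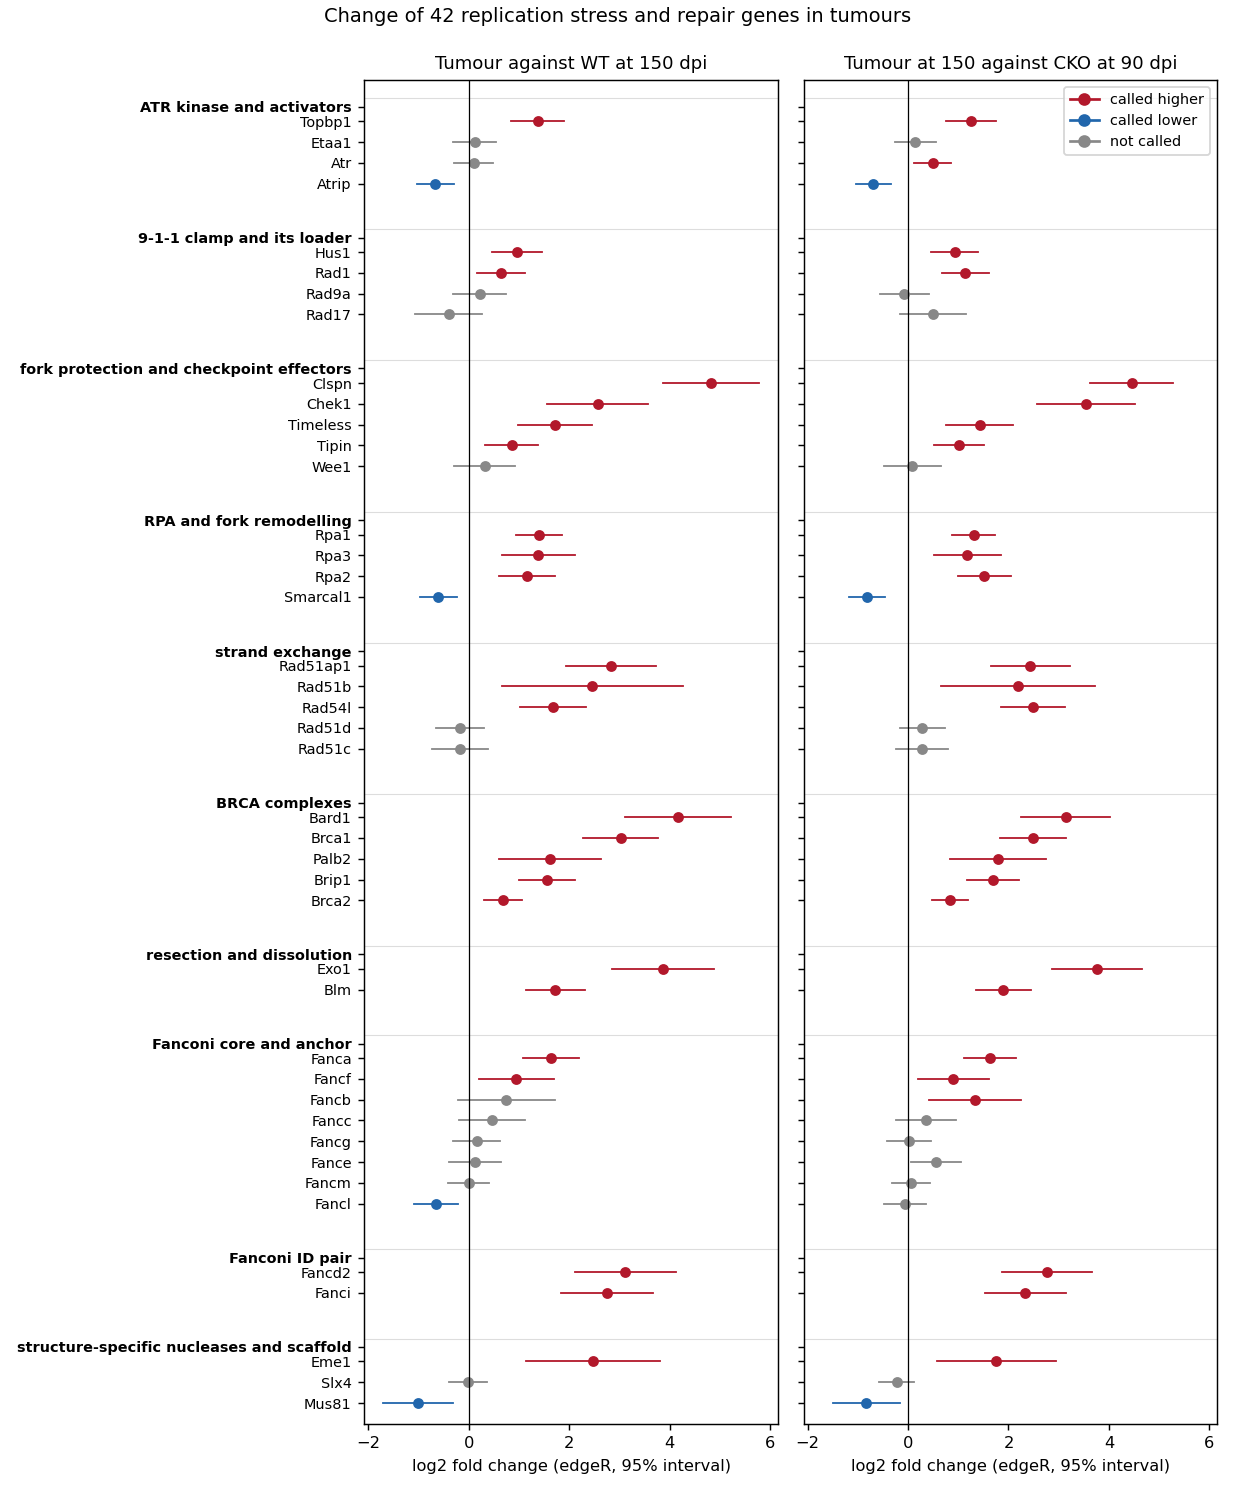
Each point is the log2 change of 1 of the 42 genes in tumours (7 animals) against WT at 150 dpi (6 animals) or CKO at 90 dpi (7 animals), grouped by role, and each bar is its 95% interval. Fork protection genes, BRCA complexes, resection genes and the FANCD2-FANCI pair lie mostly to the right of 0, while the ATR kinase, most of the Fanconi core and the nuclease scaffold lie near it.

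The cells captured also differed between these groups. Tumours had 20 of 20 proliferation genes called higher than WT at 150 dpi, with a summed level of 743 to 3514 CPM against 31.7 to 77.0, and against CKO at 90 dpi 20 of 20 again. Of the 15 S-phase genes listed, 14 were called higher than WT. OPC markers rose in 9 of 10, with sums of 4829 to 12710 CPM against 2079 to 4064. Neuron markers fell in 9 of 10 (263 to 1512 CPM against 7852 to 11326), and microglia markers rose in 9 of 10 (484 to 1520 CPM against 116 to 199). Of 10 oligodendrocyte markers 6 were called lower and 1 higher than WT (392 to 1640 CPM against 1563 to 3152), of 10 astrocyte markers 4 each way (1266 to 4100 CPM against 3360 to 4701), and of 10 endothelial markers 3 lower. Against CKO at 90 dpi 7 oligodendrocyte markers were called lower, and 4 astrocyte markers each way. The part of each of these in the members' changes was not tested.

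Among the ATR kinase and its activators (4 genes), the kinase itself was not called against WT and the activator Topbp1 rose. Atr was at 32.4 to 90.8 CPM (median 53.6) in WT at 150 dpi and 45.4 to 95.5 CPM (median 55.2) in tumours, with full overlap. Its log2 change was 0.10 ± 0.20 (adjusted p = 0.73) with a 95% interval of -0.29 to 0.49. Against CKO at 90 dpi Atr was called higher (0.49 ± 0.19, adjusted p = 0.033), but not without animal CKO_20647 (0.35, adjusted p = 0.096) or without Tumor_16839 (0.35, adjusted p = 0.112). Topbp1, which binds and switches on ATR, was at 27.4 to 46.3 CPM (median 36.2) in WT and 43.6 to 167 CPM (median 65.6) in tumours. It rose by a log2 change of 1.37 ± 0.27 (adjusted p = 8e-05) against WT and 1.26 ± 0.25 against CKO at 90 dpi, and the lowest tumour lay within the WT range. Etaa1, the other activator, was at 24.9 ± 5.68 CPM (SD, n = 6) in WT and 26.7 ± 7.99 CPM (SD, n = 7) in tumours, a log2 change of 0.12 with an interval of -0.32 to 0.55. Atrip, which tethers ATR to RPA, was lower: 16.7 to 22.2 CPM (median 19.9) in WT and 8.46 to 18.7 CPM (median 12.0) in tumours. The fall was -0.66 ± 0.19 (adjusted p = 0.0041) against WT and -0.69 ± 0.18 (adjusted p = 0.0017) against CKO at 90 dpi, with overlap.

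The RAD9-RAD1-HUS1 clamp and its loader RAD17 (4 genes) marks the DNA junction at which TOPBP1 acts. Rad1 and Hus1 rose, and Rad9a and Rad17 were not called. Hus1 was at 29.1 to 69.9 CPM (median 38.3) in WT at 150 dpi and 51.5 to 173 CPM (median 59.7) in tumours, with overlap, a log2 change of 0.96 ± 0.25 (adjusted p = 0.0020) against WT and 0.93 ± 0.24 (adjusted p = 0.0015) against CKO. Rad1 went from 10.3 ± 3.30 CPM (SD, n = 6) to 16.4 ± 3.30 CPM (SD, n = 7), a log2 change of 0.64 ± 0.25 (adjusted p = 0.030) against WT. Without Tumor_16839 or either of animals WT_21592 and WT_22062 this call was lost (adjusted p of 0.0556 to 0.0962), while against CKO at 90 dpi the change was 1.14 ± 0.24 (adjusted p = 0.00013). Rad9a was at 8.22 ± 1.45 CPM in WT and 9.51 ± 4.28 CPM in tumours. Rad17 spanned 18.8 to 129 CPM in WT and 15.8 to 83.0 CPM in tumours, with log2 changes of -0.40 ± 0.34 and 0.50 ± 0.33 in the 2 comparisons, so neither direction exceeded the spread between animals.

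Fork protection and the checkpoint effectors (5 genes) held the largest rise. Clspn was at 0.290 to 2.27 CPM (median 0.844) in WT at 150 dpi, 0.245 to 2.34 CPM (median 1.02) in CKO at 90 dpi and 16.3 to 41.5 CPM (median 21.3) in tumours. No tumour came near either range, and the fitted change was 28.4-fold (log2 4.83 ± 0.49, adjusted p = 2.9e-10) against WT and 21.9-fold (log2 4.46 ± 0.42, adjusted p = 5.2e-11) against CKO. Chek1, the kinase that claspin serves, was at 2.29 to 10.8 CPM (median 2.92) in WT and 4.88 to 97.4 CPM (median 12.7) in tumours, with overlap. Its log2 change was 2.56 ± 0.51 (adjusted p = 8.6e-05) against WT and 3.53 ± 0.50 (adjusted p = 2.7e-07) against CKO, and Tumor_16839 held the level of 97.4. Without that tumour the changes were 1.63 (adjusted p = 0.0019) and 2.66 (adjusted p = 1.1e-06), so both calls held at a lower size. Timeless and Tipin form the pair that keeps the helicase and polymerase together. Timeless went from 2.90 to 9.07 CPM (median 7.13) in WT to 4.09 to 44.5 CPM (median 19.9) in tumours, a log2 change of 1.72 ± 0.38 (adjusted p = 0.00026). Tipin rose by 0.85 ± 0.27 (adjusted p = 0.0089) and, against CKO, by 1.01 ± 0.25. Wee1, the kinase that restrains CDK1, was not called: it was at 17.1 to 28.4 CPM (median 23.3) in WT and 10.8 to 63.3 CPM (median 22.8) in tumours, a log2 change of 0.32 with an interval of -0.29 to 0.93.

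**Figure D2:**
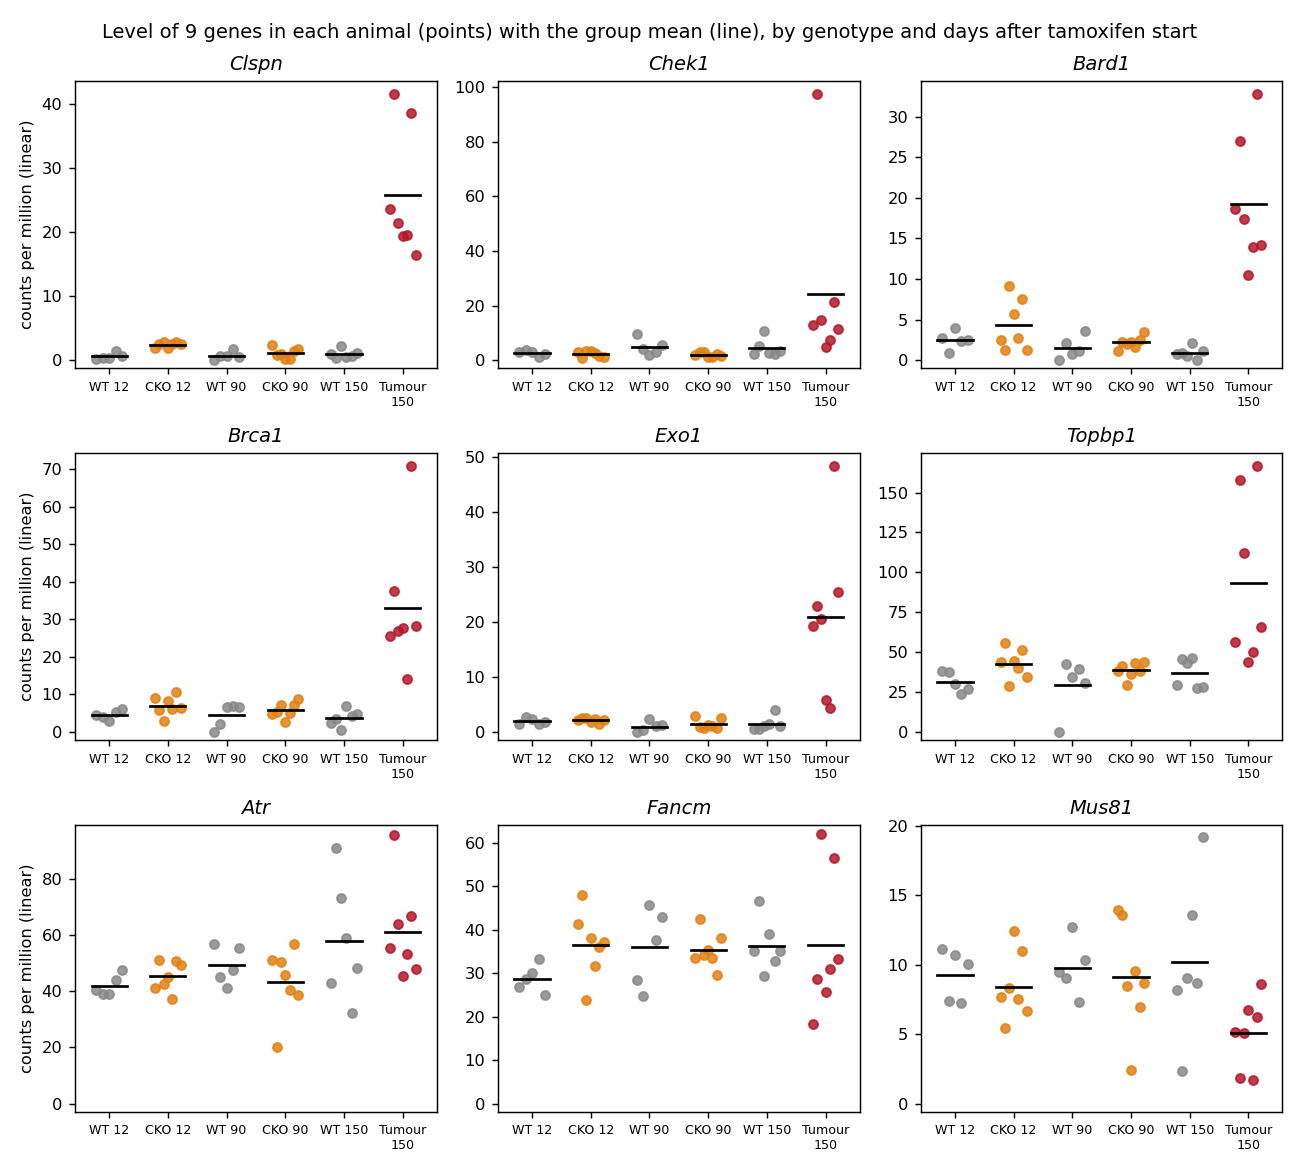
Level in CPM (linear scale, 1 axis per gene) of 9 of the genes in each animal of the 6 bulk groups, with a line at each group's mean. Clspn, Bard1, Brca1 and Exo1 are low in the 5 groups without tumours and higher in every tumour, while for Atr and Fancm all 6 groups overlap and Mus81 is lower in tumours with overlap.

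The RPA trimer, which coats single-stranded DNA, rose in all 3 subunits, and the fork remodeller Smarcal1, an annealing helicase that RPA recruits, fell. Rpa1 was at 8.50 to 37.2 CPM (median 17.6) in WT at 150 dpi and 24.1 to 103.02 CPM (median 46.9) in tumours, a log2 change of 1.40 ± 0.23 (adjusted p = 5.9e-06). Rpa2 went from 5.86 to 19.2 CPM (median 10.8) to 15.3 to 39.7 CPM (median 25.2), a log2 change of 1.16 ± 0.29 (adjusted p = 0.0011), and Rpa3 rose by 1.39 ± 0.37 (adjusted p = 0.0021). WT and tumours overlapped for each subunit, whereas all tumours were above all CKO animals at 90 dpi for Rpa1 and Rpa2. Smarcal1 was at 31.0 to 62.2 CPM (median 46.3) in WT and 17.4 to 48.3 CPM (median 29.0) in tumours, with overlap. Its log2 change was -0.61 ± 0.19 (adjusted p = 0.0079) against WT and -0.82 ± 0.18 (adjusted p = 0.00026) against CKO. Without WT_22064 the first of these was -0.46 (adjusted p = 0.0669) and no longer called.

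Of the 5 genes of strand exchange, Rad51ap1, Rad54l and Rad51b rose, and Rad51c and Rad51d were not called. Rad51ap1, whose product stimulates strand invasion, was at 0 to 3.40 CPM (median 1.30) in WT at 150 dpi and 5.16 to 25.9 CPM (median 12.5) in tumours, without overlap, a log2 change of 2.83 ± 0.45 (adjusted p = 3e-06). Rad54l, a motor that remodels DNA during strand exchange, went from 5.10 to 7.35 CPM (median 6.19) to 12.5 to 31.0 CPM (median 17.3), also without overlap. Its change was 1.67 ± 0.34 (adjusted p = 9.2e-05) against WT and 2.48 ± 0.32 against CKO. Rad51b, Rad51c and Rad51d act in complexes that assist strand exchange. Rad51b was at 0 in 4 of 6 WT animals and at 0.334 and 1.23 CPM in the others, and ran from 0.549 to 4.77 CPM (median 1.41) in tumours, with a log2 change of 2.46 ± 0.92 (adjusted p = 0.027). At so few counts the call rested on single animals: against WT it was lost without Tumor_21349 or without WT_21590, WT_21591 or WT_22064 (adjusted p of 0.0526 to 0.0776), and rose to 4.99 without WT_21593. Relative to CKO at 90 dpi its change was 2.19 ± 0.78 (adjusted p = 0.020), and 1.54 (adjusted p = 0.0948) without Tumor_21349. Rad51c was at 12.6 ± 5.73 CPM (SD, n = 6) in WT and 10.8 ± 4.96 CPM (SD, n = 7) in tumours, and Rad51d at 12.7 ± 3.32 and 11.4 ± 3.73 CPM, and neither was called in either comparison.

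All 5 members of the BRCA complexes rose against both groups. Brca1 and Bard1 form a ubiquitin ligase that promotes resection of broken ends. Brca1 was at 0.567 to 6.80 CPM (median 3.91) in WT at 150 dpi and 14.2 to 70.9 CPM (median 27.6) in tumours, a log2 change of 3.02 ± 0.38 (adjusted p = 3e-08). Bard1 was at 0 to 2.17 CPM (median 0.817) in WT and 10.5 to 32.8 CPM (median 17.4) in tumours, a fitted 17.9-fold rise (log2 4.16 ± 0.54, adjusted p = 5.2e-08). Neither gene overlapped between tumours and WT, nor between tumours and CKO at 90 dpi, where the changes were 2.49 ± 0.34 and 3.14 ± 0.45. Brca2, which acts after resection, changed less, from 36.4 to 63.8 CPM (median 40.8) to 33.5 to 108 CPM (median 68.2). Its change was 0.68 ± 0.19 (adjusted p = 0.0035), and the lowest tumour was below every WT animal. Palb2, the bridge between BRCA1 and BRCA2, went from 3.01 ± 1.62 CPM (SD, n = 6) to 9.23 ± 4.71 CPM (SD, n = 7), a change of 1.61 ± 0.52 (adjusted p = 0.010). Brip1, the helicase bound to BRCA1, was at 6.13 to 11.2 CPM (median 7.16) in WT and 8.60 to 38.3 CPM (median 22.5) in tumours, a change of 1.56 ± 0.29 (adjusted p = 2.5e-05), with overlap at the lower end.

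The genes of resection and dissolution rose as well. Exo1, the exonuclease that lengthens single-stranded ends, was at 0.510 to 4.01 CPM (median 1.08) in WT at 150 dpi and 4.30 to 48.4 CPM (median 20.6) in tumours. The groups did not overlap, though the lowest tumour was close to the highest WT animal, and the fitted change was 14.6-fold (log2 3.87 ± 0.52, adjusted p = 1.1e-07). Blm, the helicase that unwinds recombination intermediates, went from 1.13 to 12.0 CPM (median 8.22) to 13.3 to 42.5 CPM (median 22.1), also without overlap, a log2 change of 1.72 ± 0.30 (adjusted p = 1.2e-05). Against CKO at 90 dpi the changes were 3.76 ± 0.46 and 1.90 ± 0.28.

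The Fanconi core and its anchor (8 genes) divided. Fanca, a scaffold subunit, rose from 3.97 to 7.35 CPM (median 5.44) in WT to 11.2 to 25.2 CPM (median 16.6) in tumours, without overlap, a log2 change of 1.64 ± 0.28 (adjusted p = 1e-05). Fancf rose by 0.95 ± 0.38 (adjusted p = 0.040) against WT and 0.90 ± 0.36 (adjusted p = 0.036) against CKO, but neither call was firm. The first was lost without any 1 of Tumor_16839, Tumor_21256, WT_21590, WT_21592, WT_21593 and WT_22064 (adjusted p of 0.0651 to 0.104), and the second without any 1 of CKO_20642, CKO_20647, CKO_22212, Tumor_16839 and Tumor_21256 (0.0549 to 0.103). Fancl, the ubiquitin ligase of the complex, was lower: 22.8 to 32.4 CPM (median 25.0) in WT and 6.70 to 24.4 CPM (median 16.6) in tumours, with overlap. That change was -0.65 ± 0.22 (adjusted p = 0.016) against WT, but -0.06 ± 0.22 against CKO at 90 dpi. It was not called with relative log expression scaling, with the deepest library of each animal or with the compared groups alone (adjusted p up to 0.0897). Fancb, another core subunit, was called against CKO alone (1.34 ± 0.47, adjusted p = 0.017), and not without Tumor_16839 (1.03, adjusted p = 0.0736). Fancm, the translocase that anchors the complex on DNA, was at 29.5 to 46.7 CPM (median 35.1) in WT and 18.4 to 62.1 CPM (median 31.0) in tumours, with an interval of -0.40 to 0.40 around a change of 0.00. Fancc, Fance and Fancg were called in neither comparison, with log2 changes against WT of 0.46, 0.12 and 0.16.

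The pair that the core modifies rose strongly. Fancd2 was at 0.567 to 4.09 CPM (median 1.25) in WT at 150 dpi and 4.52 to 40.4 CPM (median 16.0) in tumours, a log2 change of 3.12 ± 0.51 (adjusted p = 4.2e-06). Fanci was at 0.764 to 4.63 CPM (median 2.26) in WT and 8.39 to 30.0 CPM (median 14.5) in tumours, a change of 2.75 ± 0.47 (adjusted p = 8.3e-06). Both were separated from WT, Fancd2 by a narrow gap, and against CKO at 90 dpi the changes were 2.77 ± 0.46 and 2.34 ± 0.41. The median log2 change of the pair was 2.93, and that of the 8 core genes 0.31.

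The structure-specific nuclease subunits had changes of opposite sign, but the fall of Mus81 was not firm. Mus81, the catalytic subunit, was at 2.32 to 19.2 CPM (median 8.88) in WT at 150 dpi and 1.72 to 8.61 CPM (median 5.16) in tumours, with overlap, a level 2.01-fold lower (log2 -1.0 ± 0.36, adjusted p = 0.019). That call was lost without WT_21593 (-0.86, adjusted p = 0.0653) or WT_22064 (-0.64, adjusted p = 0.165), and with the compared groups alone. Against CKO at 90 dpi the change was -0.83 ± 0.34 (adjusted p = 0.041), and the call was lost without any 1 of 20 animals, up to an adjusted p of 0.108. DESeq2, relative log expression scaling, no filter and the deepest library of each animal did not give this call either. Nor did the compared groups alone, and the adjusted p reached 0.116 over these settings. Eme1, the partner of MUS81, was at 0 to 2.11 CPM (median 0.491) in WT and 0.430 to 8.66 CPM (median 3.51) in tumours, with overlap. It rose by 2.47 ± 0.68 (adjusted p = 0.0031), and by 3.47 without WT_22064. Slx4, the scaffold that gathers these nucleases, was at 17.0 to 43.3 CPM (median 26.5) in WT and 15.2 to 41.1 CPM (median 29.1) in tumours, a change of -0.01 with an interval of -0.39 to 0.36.

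The 7 tumours were unequal. Summed over the 42 genes, Tumor_21349 and Tumor_16839 were at 1551 and 1536 CPM and the other 5 at 812 to 1000.5 CPM, where WT animals at 150 dpi were at 571 to 760 CPM. Tumor_21349 held the highest level of 18 members and Tumor_16839 of 13, while Tumor_21256 held the lowest of 17. In Tumor_21256 Exo1 was at 4.30, Brca1 at 14.2 and Fancd2 at 4.52 CPM, and in Tumor_21349 they were at 48.4, 70.9 and 40.4 CPM. Topbp1 was highest in the same 2 tumours, at 167 CPM in Tumor_21349 and 158 CPM in Tumor_16839. The order was not shared by every member: Fanca reached its highest level, 25.2 CPM, in Tumor_21256. Beside these, the proliferation genes summed to 3514 CPM in Tumor_21349, 3120 CPM in Tumor_16839 and 743 CPM in Tumor_21256, the lowest of the 7. The part of dividing cells in the order of the tumours was not tested.

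The difference between tumours and WT at 150 dpi was also tested against that between CKO and WT at 90 dpi. This difference of the genotype effects was called for 21 members (30.0% of all genes), 20 higher (14.2%) and 1 lower (15.8%), with a median of 1.00 over the members and 0.04 over all genes. It uses the tumours and the WT animals of the comparisons above. The largest changes were those of Clspn (4.43), Bard1 (3.99), Fancd2 (3.57) and Exo1 (3.53), and the fall was that of Atrip (-0.76). Clspn was at 3.84 without WT_22254. By role it was called higher in 4 of 5 fork protection genes, 4 of 5 BRCA genes, both resection genes, both FANCD2-FANCI genes and all 3 RPA subunits, but in 1 of 8 core genes and 0 of 3 nuclease genes. Of these calls, that of Rpa2 was lost without any 1 of 11 animals (adjusted p up to 0.107), that of Rpa3 without any 1 of 9 (up to 0.103), that of Tipin without any 1 of 9 (up to 0.0864) and that of Rad1 without any 1 of 4 (up to 0.0673), and that of Atrip without any 1 of 20 (up to 0.168). The plot of all 42 genes in 6 comparisons shows the effects at 12, 90 and 150 dpi from which these differences are made. Over all called genes, trimmed-mean scaling gave 2314 higher and 2590 lower, relative log expression scaling 2932 and 2185, and DESeq2 3254 and 2301, and Atrip was not called lower by either of the last 2.

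**Figure D3:**
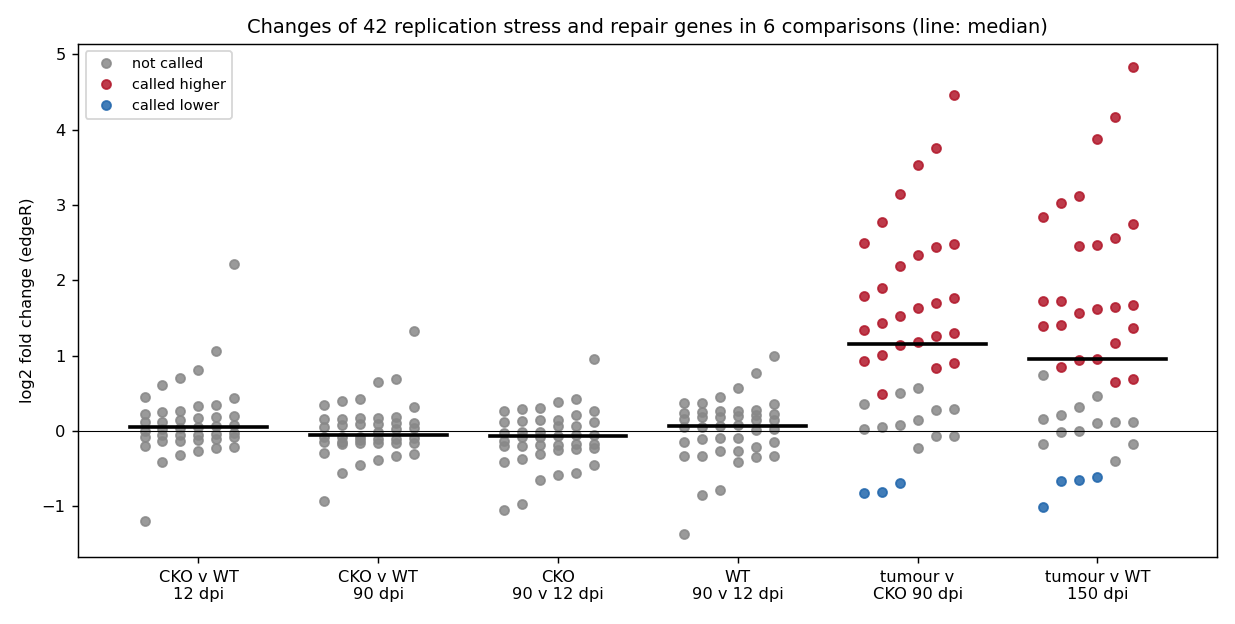
Log2 changes of the 42 genes in 6 comparisons of bulk animals, 1 point per gene, with a line at the median. The comparisons without tumours centre near 0, with Clspn at 2.22 the highest point at 12 dpi, and the comparisons with tumours have medians of 0.95 and 1.16.

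Other genes of the pathway, listed by function but with earlier results of these data known, were tested in the same fit. Of 50 that could be tested, 31 (62%, where 46.2% of all genes were) were called against WT at 150 dpi, with a median log2 change of 0.69. They were 27 higher (54%) and 4 lower (8%), where 24.3% of all genes were called higher and 21.9% lower. Rrm2, the ribonucleotide reductase subunit that limits DNA precursors, had a change of 6.47, and Rrm1, its partner, 1.47. Parpbp was at 4.60, Recql4, a helicase of origin firing, at 4.18, Rad54b at 2.19, the end-resection factor Rbbp8 at 2.22, and the kinases Chek2 and Atm at 1.5 and 0.54. Those lower were Wdr48 (-0.78), Swsap1 (-0.68), Donson (-0.51) and Trp53bp1 (-0.45), the last of which shields DNA ends from resection. Of 10 end-joining genes, which rejoin breaks without a template, 4 were called (40%, near the 46.2% of all genes). All 4 were higher (Xrcc5 at 1.91, Poll at 1.07, Xrcc6 at 0.72 and Dclre1c at 0.51), where 24.3% of all genes were called higher. Against CKO at 90 dpi, 32 of the 50 were called (64%, 29 higher and 3 lower) and 4 of the 10 (40%, 3 higher and 1 lower), where 49.1% of all genes were. Of all genes, 26.4% were called higher and 22.6% lower in that comparison. Before tumours none of these 60 genes was called.

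In the small captures most of these genes were near the limit of detection. Library totals in units of 1000000 counts were 1.64 to 6.49 (median 4.24) in 10-cell libraries and 1.91 to 5.16 (median 3.80) in pooled ones, and the spike-in share was 0.00622% to 24.5%. Of the 42 members a 10-cell library at 12 dpi detected 3 to 30 with at least 1 count (median 16.5), and a pooled library 8 to 28 (median 18). At 90 dpi the medians were 22.5 in 10-cell and 20 in pooled libraries. Over all genes, the median number detected per 10-cell library was 7550 at 12 dpi and 10109.5 at 90 dpi, and in pooled libraries 8690.5 and 8739. Detection was higher at 90 than at 12 dpi for 39 of 42 members in 10-cell libraries and for 26 in pooled ones. The part of the overall gene number in this was not tested.

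**Figure D4:**
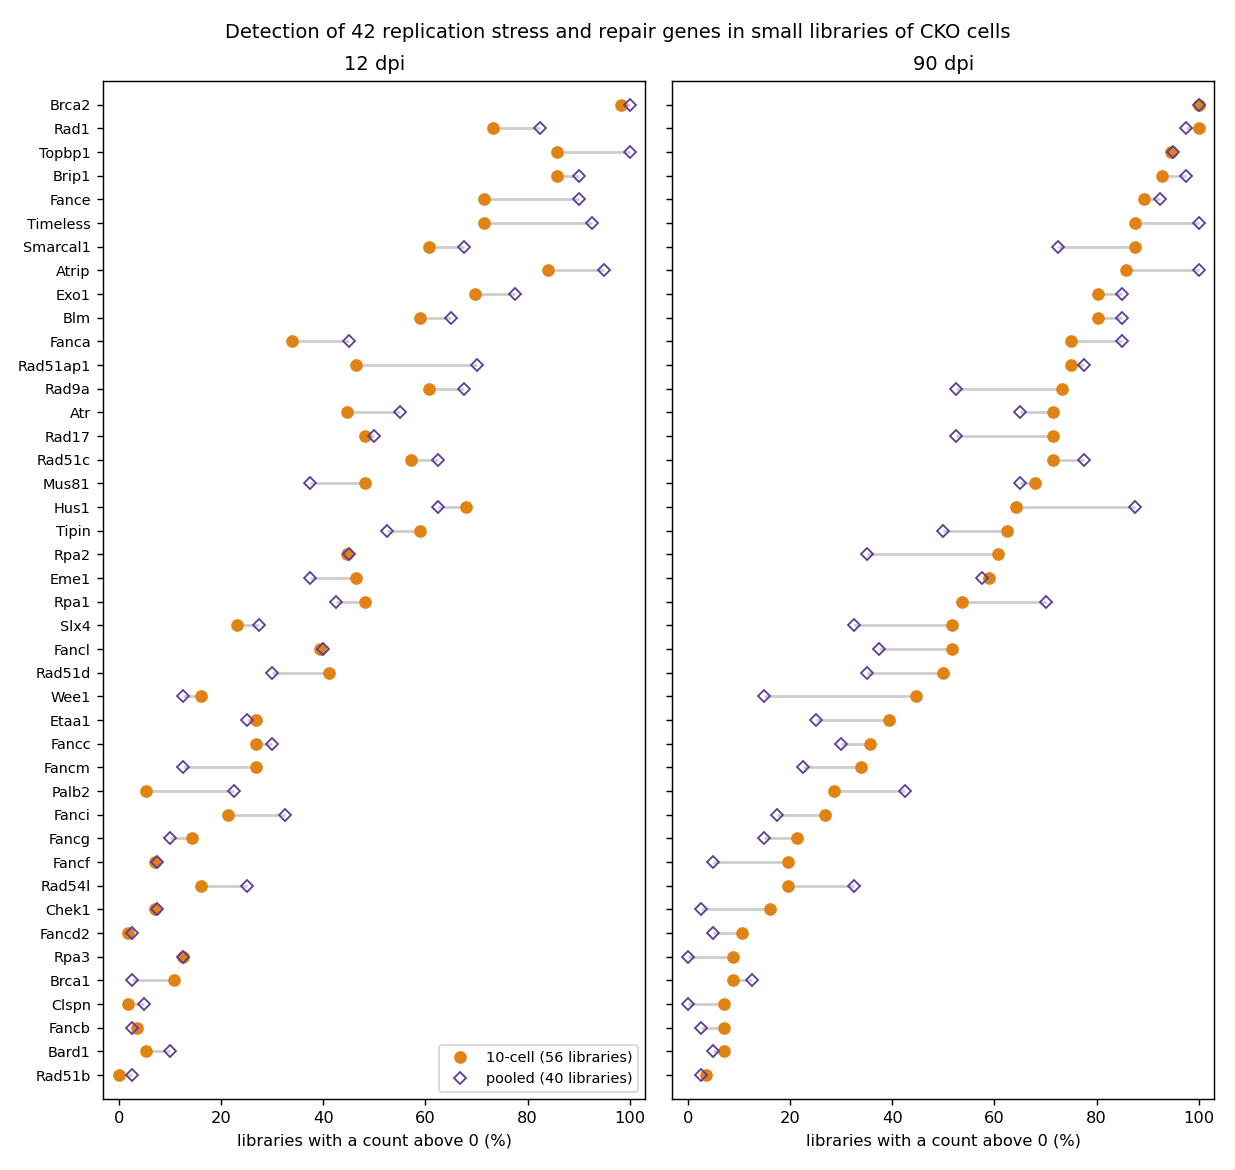
Share of libraries (%) in which each of the 42 genes had a count above 0, for 56 10-cell and 40 pooled libraries at 12 dpi and at 90 dpi. Brca2 lies at 98.2% to 100% in all 4 groups, and Rad51b at 0% to 3.57%.

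The member found most often was Brca2, in 98.2% of 10-cell libraries at 12 dpi and in 100% in the other 3 groups. Topbp1 was found in 85.7% and 94.6% of 10-cell libraries at 12 and 90 dpi. Brip1 was found in 85.7% and 92.9%, and Rad1 in 73.2% and 100%. Genes that rose in tumours were found at very different rates. Exo1 was found in 69.6% of 10-cell libraries at 12 dpi and 80.4% at 90 dpi, and Rad51ap1 in 46.4% and 75%. Clspn was found in 1.79% of 10-cell libraries at 12 dpi and 7.14% at 90 dpi, Bard1 in 5.36% and 7.14%, Brca1 in 10.7% and 8.93%, Chek1 in 7.14% and 16.1%, and Fancd2 in 1.79% and 10.7%. In pooled libraries at 12 dpi these last 5 genes were found in 2.50% to 10.0%. Rad51b was found in 0 of 56 10-cell libraries at 12 dpi, which allows a share of up to 5.36%, and Clspn and Rpa3 in 0 of 40 pooled libraries at 90 dpi, which allows up to 7.5%. These limits cover counting of libraries only. A median of 42.9% of 10-cell libraries detected a member at 12 dpi and 56.3% at 90 dpi, against 38.8% and 46.3% of pooled ones.

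For tests of level, the libraries were summed by time, sex and the number that ends their title, which gave 4 sets per time of 14 10-cell or 10 pooled libraries. What the number stands for is not stated, so p-values measure the spread between these sets. No member was called between 90 and 12 dpi in 10-cell sets (36 tested) or in pooled sets (32 tested), nor between 10-cell and pooled sets at 12 or at 90 dpi (39 tested each), and 0.0% of all genes were called in each of the 4 comparisons by edgeR. Over all genes 1034 to 1303 had an unadjusted p under 0.05, and DESeq2 called 262 to 523. The biological coefficient of variation was 0.955 in 10-cell sets, 1.08 in pooled sets and 0.418 in bulk.

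Wee1 gave the largest log2 change between the times in 10-cell sets, 3.79 ± 1.09 (adjusted p = 0.63). It was at 0.109, 0.159, 0.268 and 1.07 CPM in the 4 sets at 12 dpi and at 1.90, 5.05, 5.42 and 8.46 CPM at 90 dpi. These values do not overlap, but how many of all genes separate in this way among 4 sets per time was not counted. Wee1 was found in 16.1% of 10-cell libraries at 12 dpi and 44.6% at 90 dpi. Pooled sets did not show such a separation, at 0.148, 1.37, 7.08 and 7.78 CPM at 12 dpi and 0.245, 0.927, 17.9 and 22.8 CPM at 90 dpi. Fanci, Tipin, Slx4 and Hus1 also had unadjusted p-values under 0.05 in 10-cell sets, with log2 changes of -3.32, -1.86, 2.66 and 2.75. DESeq2 called Wee1 alone among the members.

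In pooled sets Rpa1 was at 0.272, 0.608, 1.05 and 2.55 CPM at 12 dpi and 18.2, 25.4, 29.7 and 45.1 CPM at 90 dpi. Its log2 change was 4.71 (edgeR, adjusted p = 0.58), and separations of this kind were not counted over all genes. In 10-cell sets it was at 0.144, 7.87, 24.8 and 150 CPM and at 6.36, 7.01, 16.7 and 16.9 CPM, which overlap. Fancm, Fancg, Fanca and Atrip were the other members with an unadjusted p under 0.05 in pooled sets, at 6.65, 5.89, 3.49 and 1.91. DESeq2 called Rpa1, Fancm, Fancg and Fanca there. Brca2 was steady by comparison: 24.9, 37.8, 40.6 and 45.6 CPM in 10-cell sets at 12 dpi and 21.4, 27.8, 30.3 and 40.8 CPM at 90 dpi, with pooled sets at 26.5 to 51.2 and 34.8 to 70.2 CPM. Topbp1 was at 3.55, 3.65, 4.73 and 4.87 CPM in 10-cell sets at 12 dpi and 4.24, 4.31, 4.44 and 7.12 CPM at 90 dpi, again with overlap.

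Spread between libraries was compared for the 15 members found in at least 50% of the libraries of each time, with a limma test on absolute deviations of log2(CPM + 1) from the median of the set. A gene that varies from cell to cell would spread more among 10-cell libraries than among aliquots of a pool. No member was called at 12 dpi (0.204% of 7859 genes), at 90 dpi (0.0%) or in the change between them (0.623%), and no member had an unadjusted p under 0.05 in any of the 3. By the deviations tested, spread was larger in 10-cell libraries for 8 of the 15 at each time. The median difference was 0.036 over the members and 0.165 over all genes at 12 dpi, and 0.051 and -0.097 at 90 dpi. The standard deviation was larger in 10-cell libraries for 10 of the 15 at each time, a count not made over all genes. The median standard deviation over the 15 was 1.43 in 10-cell and 1.14 in pooled libraries at 12 dpi, and 1.34 and 1.30 at 90 dpi, on the log2 scale.

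Brca2 had a mean standard deviation of 1.56 in 10-cell and 1.07 in pooled libraries at 12 dpi, and of 1.37 and 1.04 at 90 dpi. Its difference of spread at 12 dpi was 0.31 (limma, adjusted p = 0.533). Smarcal1 had the largest difference at 12 dpi (0.34, adjusted p = 0.742) and, in the other direction, at 90 dpi (-0.62, adjusted p = 0.541), with standard deviations of 2.60 and 2.33 and then of 2.20 and 2.92. The change between the times was -0.96 (adjusted p = 0.328). At 12 dpi Rad51c (0.22), Hus1 (-0.19), Brip1 (0.16) and Blm (-0.16) followed, and at 90 dpi Rad9a (0.43), Rad51ap1 (-0.30), Blm (0.30), Atrip (0.26) and Tipin (0.23). The other 27 members were found in too few libraries to be tested.

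**Figure D5:**
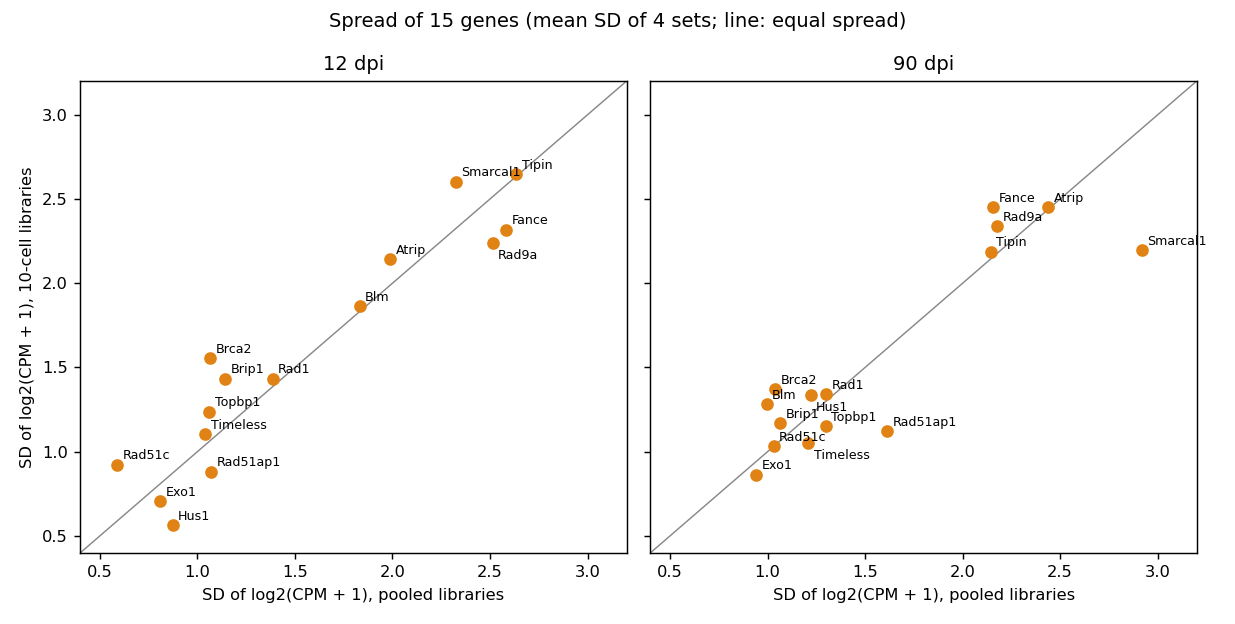
Mean standard deviation of log2(CPM + 1) over 4 sets for the 15 genes tested, in 10-cell against pooled libraries at 12 and 90 dpi, with the line of equal spread. Of the 15 points, 10 lie above the line at each time, a count not made over all genes, and none passed the test.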

How the data were processed

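RNA of laser-captured cells was sequenced in 240 libraries: 48 bulk and 192 small. Per the labels' protocols, bulk captures were amplified linearly with T7 polymerase, and small captures by PCR. The submitters' processing notes name Bowtie2, RSEM and GRCm38. The values deposited by the authors are expected counts per gene, which need not be whole and were rounded here. No column of values was left unmapped (0), and the 92 spike-in rows were left out of totals and tests. No 2 libraries held identical values.

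Libraries of 1 animal were summed, and all 37 animals entered 1 fit with sex as a covariate: edgeR 4.0.16 (R 4.3.3), trimmed-mean scaling, filterByExpr (minimum count 10, minimum total 15), quasi-likelihood tests, Benjamini-Hochberg adjustment over all genes and a threshold of 0.05. All 42 members passed that filter in bulk. Small libraries were summed into sets for levels. Spread was tested with limma 3.58.1. DESeq2 1.42.0, relative log expression scaling, no filter, no sex term, 1 library per animal (the deepest), a fit of only the groups compared, and leaving out each animal or set were the alternatives. Scripts were tested on simulated data. Near-identical copies were sought with blastn 2.17.0, as hits of 95% identity or more that cover 50% or more of the shorter of both transcripts. Tables were made with Python 3.11.15 and pandas 2.3.3. The members and all gene lists were chosen with earlier results of these data known. Every member could be named, and every animal's range was given for 1 or more genes per role, together with the largest changes of each comparison. The labels do not say that animals of a group were independent litters, so p-values measure the spread between these animals. The labels do not say what the replicate numbers of the small sets mark, so no block entered the main tests.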

Additional observations from a re-analysis of the deposited data

Results flagged for a closer look

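Within groups of 5 to 7 animals, 23 of 252 combinations of member and group held an animal far from the others, judged by its gap to the nearest animal relative to the range. Chance alone gives about 1 in 20. Of the 23, 11 came from animal WT_21167 at 90 dpi, whose library total, in units of 1000000 counts, was 0.0937, the lowest of all. It was at 0 CPM for Etaa1, Topbp1, Rad1, Rpa2, Rpa3, Rad51d, Brip1, Fanca and Fanci and at 9.48 CPM for Rad17 and Tipin. Animal CKO_20647 at 90 dpi had the highest neuron and astrocyte marker sums and the lowest OPC marker sum of its group. It was low for Atr (20.3 CPM) and Fancl (8.07 CPM) and high for Hus1 (93.1 CPM) and Fancc (15.2 CPM). Animal CKO_22149 at 90 dpi was high for Palb2 (7.86 CPM) and low for Mus81 (2.46 CPM). The others were Tipin in animal CKO_22017 at 12 dpi (8.65 CPM), Fancc in animal WT_22178 at 12 dpi (13.7 CPM), Wee1 in animal WT_22185 at 90 dpi (40.2 CPM), Rad51b (1.23 CPM) in animal WT_21593 and Blm (1.13 CPM) in animal WT_21592 at 150 dpi, and Fancg in Tumor_21256 (3.44 CPM).

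The genotype effect differed between 150 dpi, where the mutant group is the tumours, and 90 dpi for 21 members (edgeR interaction test, Benjamini-Hochberg adjusted). In 20 it was higher at 150 dpi, by log2 differences of 4.43 for Clspn, 3.99 for Bard1, 3.57 for Fancd2, 3.53 for Exo1, 3.49 for Chek1, 2.94 for Brca1, 2.43 for Fanci, 2.41 for Rad51ap1 and 2.28 for Blm. Brip1 (1.86), Timeless (1.84), Rad54l (1.84), Fanca (1.54), Rpa3 (1.41), Rpa1 (1.38), Topbp1 (1.20), Rpa2 (1.09), Tipin (1.03), Rad1 (0.98) and Brca2 (0.84) differed less. Atrip was lower, at -0.76. The value for Chek1 was 2.57 without Tumor_16839, and 6 members lost or gained this call when 1 animal or a setting was changed (Atrip, Rad1, Rpa2, Rpa3, Tipin and Smarcal1).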

How the results depend on the processing

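Leaving out each animal in turn gave 25 to 29 members called against WT at 150 dpi, 27 to 31 against CKO at 90 dpi and 16 to 21 for the difference of the genotype effects at 150 and 90 dpi, and 0 in the 5 comparisons without tumours. DESeq2, relative log expression scaling, no filter, no sex term, the deepest library and the compared groups alone gave 24 to 29, 27 to 30 and 16 to 21. Relative log expression scaling moved the median log2 change of all genes by 0.15, 0.17 and 0.16 in these 3 comparisons. Calls kept in every setting numbered 22 of 29, 25 of 31 and 16 of 22 named members. Those that changed against WT were Fancf, Fancl, Mus81, Rad1, Rad51b, Smarcal1 and Tipin, and against CKO Atr, Fancb, Fance, Fancf, Mus81 and Rad51b. In the small libraries DESeq2 called 1 member (Wee1) between the times in 10-cell sets, 4 in pooled sets and 2 (Rad51b and Rpa1) between 10-cell and pooled sets at 12 dpi, where edgeR called 0, and leaving out each set gave 0. The log2 change of Rad51b between 10-cell and pooled sets at 12 dpi, -3.88, ran from -4.62 to 0.0123 over the sets left out and reversed without the first male set; the cause was not tested. A replicate block on the set numbers called 0 members in all 7 small-library results. Same-numbered sets of 12 and 90 dpi deviated with correlations of -0.037 to 0.015. For 10-cell and pooled sets of the same time, sex and number the correlations were 0.019 to 0.105. Among sets that vary this much, such values cannot decide whether the numbers pair them. Variation between sets was larger than that between bulk animals. In WT animals at 150 dpi Rad51b was at 0 to 1.23 CPM, Eme1 at 0 to 2.11, Clspn at 0.290 to 2.27 and Bard1 at 0 to 2.17. Bard1 reached 9.20 CPM in CKO at 12 dpi.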
